A study of Mus musculus with 16 samples.

Results

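The clustered histone genes of the mouse genome were followed in frontal cortex (FC) and cerebellum (Cere) of adult Upf3b-KO mice and of Ctrl littermates. They were taken as the protein-coding genes whose symbol is H1f1 to H1f5, or H2ac, H2bc, H3c or H4c followed by a number. The rule gave 67 genes of 55266 with a transcript in the count matrices: 5 genes of the linker histone H1, 18 of H2A, 19 of H2B, 12 of H3 and 13 of H4. On the genome GRCm39, 53 of them lie on chromosome 13, 10 on chromosome 3, 3 on chromosome 11 and 1 on chromosome 6. Upf3b, the gene lost in the knockout, encodes an adaptor protein of nonsense-mediated RNA decay, a pathway that degrades selected RNAs. The study describes the knockout as a null of this X-linked gene in adult mice. The labels name no strain, exact age, other allele or treatment for either genotype. Each of the groups FC Ctrl, FC Upf3b-KO and Cere Ctrl is described here by 4 libraries. Cere Upf3b-KO is described by 3, since its replicate 1 held only 64981 counts.

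Clustered histone genes supply the bulk of the histone protein that packages newly copied DNA, and their expression is tied to S phase of the cell cycle. Their messages usually have no introns and no poly(A) tail. They end instead just after a short stem-loop that is bound by the stem-loop binding protein, and UPF1, the central helicase of nonsense-mediated decay, also takes part in their degradation when DNA synthesis stops. In cells that have left the cell cycle, such as neurons, histone proteins are largely renewed from other, replication-independent genes, and some clustered genes are read into polyadenylated RNAs that extend beyond the stem-loop.

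The stem-loop was looked for on the strand of the gene in the 150 bases after the annotated stop codon. It was found in 63 of the 67 genes, against 7 of 21566 other protein-coding genes, which is 0.0325%. H2ax and H1f6 are among those 7. No match was found in this window for H2bc21, H3c8, H4c1 and H2ac22. The start of the stem-loop lay 21 to 58 bases after the stop codon, with a median of 30. The 16 bases of the loop and its stems took 6 forms, of which that of H1f2 below was shared by 42 genes of H1, H2A, H2B and H3. The form of H2bc12 and H2bc13 was carried by 8 genes of H2A, H2B and H3, that of H4c8 by 8 H4 genes and that of H4c9 by 2 H4 genes. The sequences shown are those of the genes the results turn on, read from GRCm39 5′ to 3′, with the stem-loop in capitals and flanking bases in lower case.
H1f2 (chr13:23923495-23923510, + strand): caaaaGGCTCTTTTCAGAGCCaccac
H2ac25 (chr11:58845998-58846013, + strand): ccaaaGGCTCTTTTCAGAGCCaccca
H2ac6 (chr13:23867460-23867475, - strand): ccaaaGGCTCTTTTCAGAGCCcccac
H2bc4 (chr13:23868630-23868645, + strand): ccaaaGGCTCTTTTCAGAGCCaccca
H2bc27 (chr11:58840175-58840190, + strand): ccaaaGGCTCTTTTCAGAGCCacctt
H3c15 (chr3:96145801-96145816, - strand): acaaaGGCTCTTTTCAGAGCCaccac
H2bc12 (chr13:22220470-22220485, + strand): ccaaaGGCTCTTTTAAGAGCCactaa
H2bc13 (chr13:21899888-21899903, - strand): tcaaaGGCTCTTTTAAGAGCCaccca
H4c8 (chr13:23715628-23715643, + strand): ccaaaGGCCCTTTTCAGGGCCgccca
H4c9 (chr13:22225136-22225151, - strand): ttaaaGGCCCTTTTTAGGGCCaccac

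The 15 libraries used held 27660078 to 35238677 counts, so that 3 counts, the floor of a library, correspond to 0.0851 to 0.108 CPM, the unit of level used here, which scales each count to the depth of its library. The level of Upf3b itself was 14.2 to 15.7 CPM in FC Ctrl and 0.229 to 0.857 CPM in FC Upf3b-KO, and 20.9 to 23.6 CPM in Cere Ctrl and 0.617 to 0.965 CPM in Cere Upf3b-KO. Tissue came, per the study's text, from 4 mice of each genotype, and the labels do not tie a library to an animal, so libraries of the 2 regions may share animals. The spread between libraries of a group was small, with a common biological coefficient of variation of 3.87% to 4.07%, although every pair of libraries in a group differed by more than counting noise. A difference above counting noise does not show that the libraries came from separate mice. The p-values measure the spread between these libraries, which may differ from the spread between mice. Libraries were made after removal of ribosomal RNA. Whether reverse transcription was primed on poly(A) tails is not given in the sources used here, and an RNA that ends at the stem-loop would be missed by such priming.

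The RNA of the clustered histone genes came mainly from a handful of members. Over the 15 libraries, 17 of the 67 genes had a mean of at least 0.5 CPM, 22 had fewer than 10 counts in all libraries together, and H2ac1, H2ac4, H2ac10, H2ac11 and H2bc1 had none. In a library taken alone, 0 counts still allow up to 3. The 5 most abundant members took 77.7% of the summed CPM of all 67, and the 8 most abundant took 91.1%. On the scale of CPM per kilobase of transcript, which allows genes to be compared, the order within H2B was led by H2bc27 with 24.8 and H2bc4 with 23.9. H2ac19 with 21.2 and H2ac25 with 14 led H2A, H1f2 with 15.7 and H1f4 with 1.36 led H1, H3c15 with 2.72 and H3c4 with 0.243 led H3, and H4c8 with 2.41 and H4c9 with 1.61 led H4. H2B members together contributed 48% of member CPM in FC Ctrl, H2A members 30.9% and H1 members 15.9%, whereas H3 and H4 members contributed 2.36% and 2.81%.

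**Figure D1:**
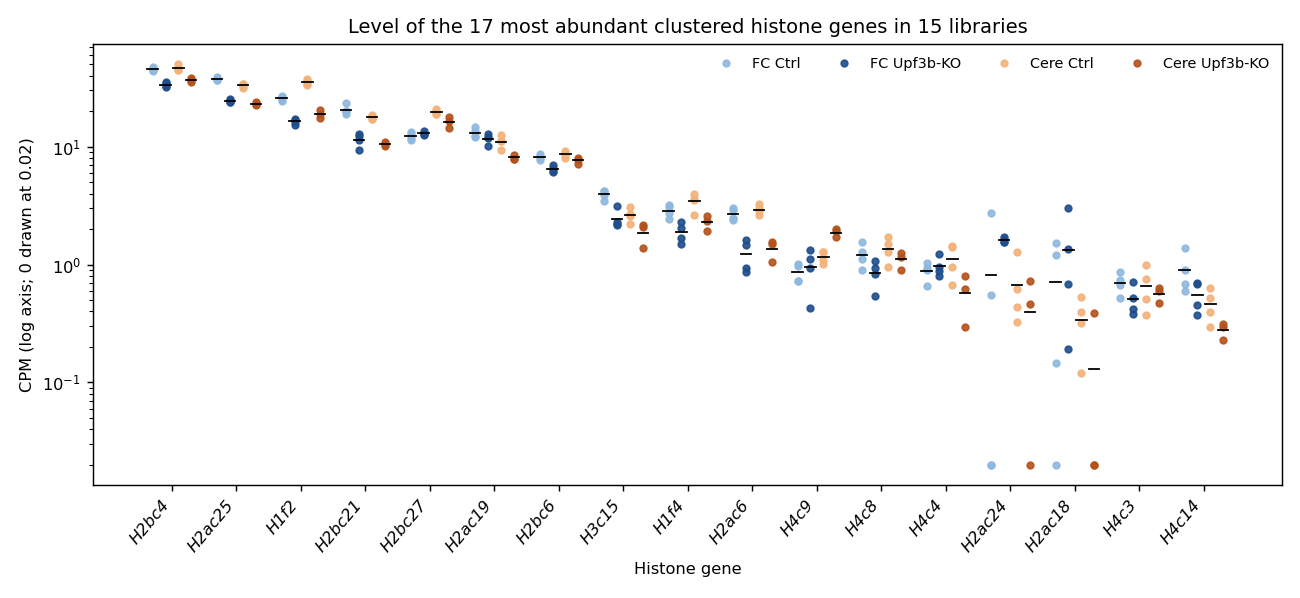
Level in CPM (log axis) of the 17 clustered histone genes that average 0.5 CPM or more, by gene and group, with a point for each of the 15 libraries and a bar at the group mean (0 drawn at 0.02). H2bc4, H2ac25, H1f2 and H2bc21 show no overlap between genotypes in either region, while the points of H2ac24 and H2ac18 overlap between genotypes in both regions.

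Abundance was unevenly distributed over annotated 3′ ends. In 25 members, the annotated gene ran at least 100 bases past the stem-loop, and 12 of these 25 (48%) reached 0.5 CPM. The 12 included H2bc4, H2ac25, H1f2, H2bc27 and H2bc6, and the 25 together carried 80.8% of the member CPM, a scale that rises with transcript length, and 71.5% of the member CPM per kilobase. In 38 members the annotated gene ended within 100 bases of the stem-loop or before it, and 4 of the 38 (10.5%) reached 0.5 CPM: H2ac19, H4c8, H2ac24 and H2ac18. The 38 carried 9.69% of the member CPM and 23.8% of the member CPM per kilobase. A long annotated end was not always accompanied by a high level, since H1f3, whose longest transcript has 7425 bases, had no more than 0.462 CPM in any library. H2bc21, which encodes the H2B variant H2BE and has a single transcript of 2620 bases without a stem-loop match, was the 4th most abundant member. These shares describe the annotation and the level together, and no test was made of them.

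**Figure D2:**
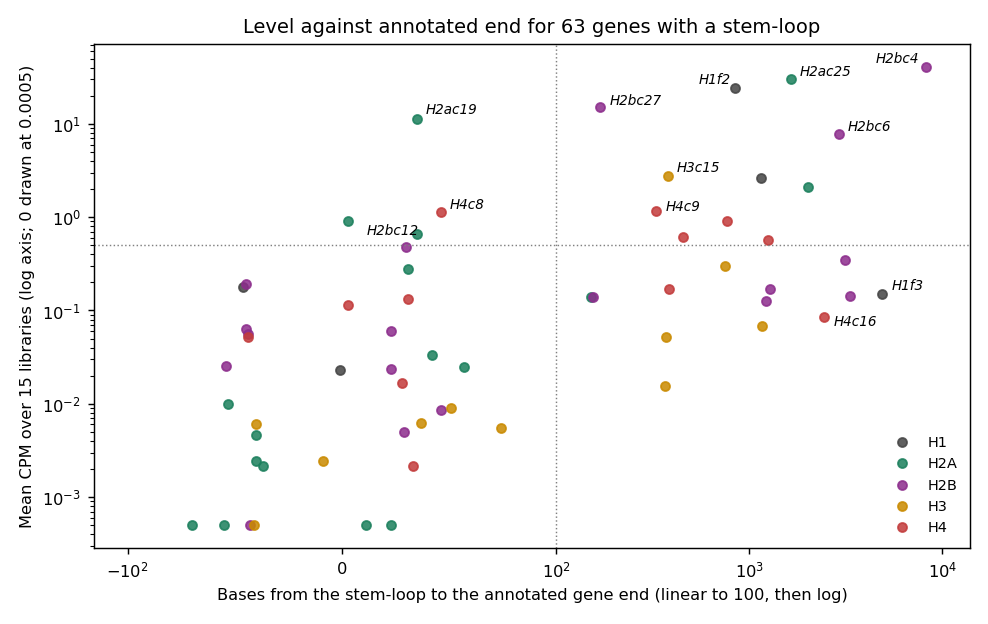
Mean CPM over 15 libraries (log axis) against the distance from the end of the stem-loop to the annotated end of the gene for the 63 members with a stem-loop, coloured by family; negative distances are annotations that end before the stem-loop. The upper right holds 12 of the 25 genes annotated at least 100 bases past the loop (vertical line) and at 0.5 CPM or more (horizontal line), and the upper left holds 4 of 38.

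Several members cannot be told apart from their copies. In 35 of the 67 genes, at least 50% of the 50-base words of the transcripts also occur in another gene of the matrices. All words of H2ac19 and H2ac18, at one locus of chromosome 3, occur in each other or in the lncRNA genes Gm20632, Gm20633 and Gm20634, and 93.1% and 93.5% of the words of H2ac24 and H2ac23 are shared. H2bc23 shares 98.3% of its words, mainly with H2bc24, and H3c15 shares 63.5%, with H3c14 and with the lncRNA gene Gm20634. RSEM divides the reads of such genes by a model, so their single values are uncertain and sums over copies are given beside them. Use of strand in the counting was not stated, which leaves H2ac6 and H2bc4 uncertain where they overlap on opposite strands, and H1f4 and H2bc6, as well as H2ac25 and Trim17, overlap on the same strand.

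The first comparison asked which members depend on Upf3b in frontal cortex. Summed over all 67 genes, member RNA was 177 to 185 CPM in the Ctrl libraries and 129 to 137 CPM in the Upf3b-KO libraries, which is 74.2% of the Ctrl mean. The ranges did not overlap. H1f2, H2ac25, H2bc4, H2ac6 and H3c15 were lower in Upf3b-KO, H2bc27 differed little, and H2bc12, H2bc22 and H2bc23, H2B genes that were close to 0 in Ctrl and share sequence with one another, were higher. In a bulk sample, fewer cells of a type cannot be told apart from less RNA per cell. The H1, H2A, H2B and H3 sums of Upf3b-KO stood at 65.1%, 72.7%, 77.6% and 66.8% of Ctrl, with no overlap between genotypes, and the H4 sum stood at 88.7%, with overlap.

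**Figure D3:**
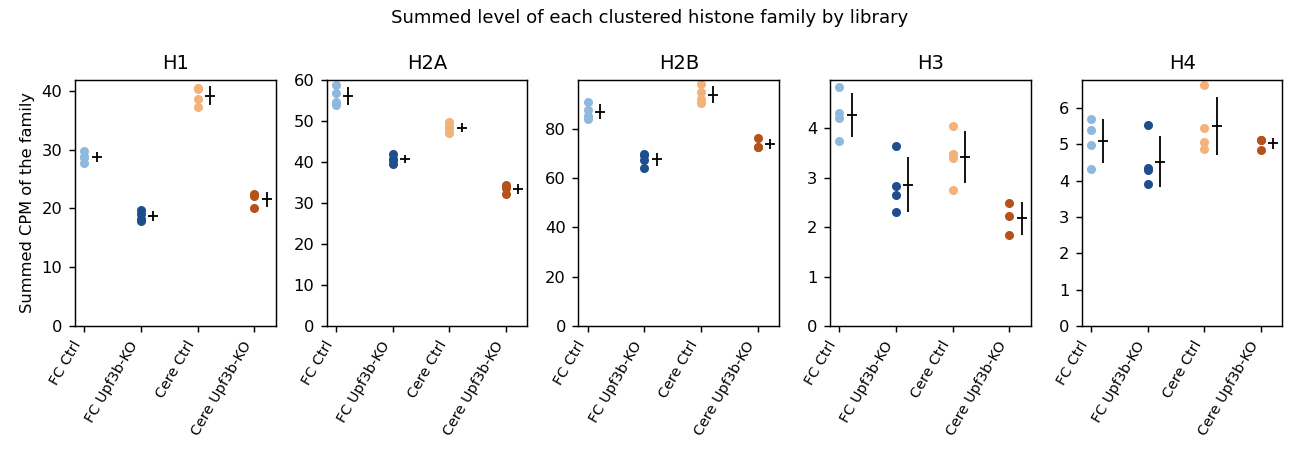
Summed CPM of the 5 clustered histone families by library (points) with mean ± SD at the side of each group (n = 4, and 3 in Cere Upf3b-KO); every axis starts at 0. In H1, H2A and H2B all Upf3b-KO libraries lie below all Ctrl libraries of the same region, and in H4 the groups overlap.

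H1f2 (chr13:23922791-23924350) encodes linker histone H1.2, which binds the DNA between nucleosomes, and is a single exon with 840 annotated bases past the stem-loop shown above. Its level was 24.4, 26.3, 25.5 and 26.8 CPM in FC Ctrl and 15.3, 16.7, 16.2 and 17.3 CPM in FC Upf3b-KO. Every knockout library lay below every control library, and H1f2 changed by -0.73 ± 0.06 on the log2 scale (± SE here and below), with an adjusted p of 3.3e-10 in edgeR's quasi-likelihood test. H1f4 (chr13:23804612-23806541), the gene of linker histone H1.4, fell from 2.87 ± 0.358 to 1.87 ± 0.364 CPM (SD, n = 4), with a log2 fold change of -0.68 ± 0.17 and an adjusted p of 0.00195.

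Among the H2A genes, H2ac25 (chr11:58845511-58847656) stood at 39.0, 37.9, 36.7 and 36.8 CPM in FC Ctrl and at 24, 23.8, 25.1 and 25.4 CPM in FC Upf3b-KO. The groups were widely separated, with a log2 fold change of -0.69 ± 0.04 and an adjusted p of 1.29e-11, the smallest of any member. Its neighbour Trim17, with which it overlaps on the same strand, was at 6.09 to 8.05 CPM in Ctrl and 7.72 to 8.31 CPM in Upf3b-KO. Of the members tested by edgeR, H2ac6 (chr13:23865450-23867931) was the one that fell by more than 2-fold, while DESeq2, which tested more members, called 2 down. It had 2.9, 3.03, 2.48 and 2.38 CPM in Ctrl and 0.943, 1.6, 0.872 and 1.47 CPM in Upf3b-KO, and its log2 fold change was -1.21 ± 0.21 with an adjusted p of 3.65e-05. H2ac19 (chr3:96147065-96147592) decreased slightly, from 13.2 ± 1.22 to 11.7 ± 1.09 CPM, with overlap between the groups and an adjusted p of 0.0163. That value passed 0.05 no longer without Ctrl replicate 2 or without Upf3b-KO replicate 4, where it rose to at most 0.0749. Together with H2ac18 it had 13.5 to 14.9 CPM in Ctrl and 12.6 to 13.5 CPM in Upf3b-KO, and with the 3 lncRNA genes as well 29.9 to 33.7 and 26.2 to 28.3 CPM, which do not overlap.

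The most abundant member, H2bc4 (chr13:23867631-23878163), has a second exon and an annotated end 8246 bases past its stem-loop. It was at 44.5, 47.2, 43.8 and 45.9 CPM in FC Ctrl and at 32.8, 34.6, 35.0 and 32.2 CPM in FC Upf3b-KO, a log2 fold change of -0.51 ± 0.04 (adjusted p = 5.35e-10). H2bc27 (chr11:58838848-58840361) behaved differently, with 11.3 to 13.2 CPM in Ctrl and 12.6 to 13.7 CPM in Upf3b-KO and a log2 fold change of -0.0047 ± 0.07 (adjusted p = 0.964). H2bc21 (chr3:96128435-96131054), which stands outside the naming rule and was chosen after its values were seen, like the other members named beyond that rule, had 19.1 to 23.3 CPM in Ctrl and 9.32 to 12.8 CPM in Upf3b-KO. Its log2 fold change was -0.92 ± 0.09 (adjusted p = 7.82e-09), just short of 2-fold.

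H2bc6 (chr13:23766595-23805139), an H2B gene, was lower as a gene, with a log2 fold change of -0.41 ± 0.09 and an adjusted p of 0.000733, but its transcripts did not move together. The 2 coding transcripts in the matrices summed to 3.55 to 4.01 CPM in FC Ctrl and 3.57 to 4.74 CPM in FC Upf3b-KO. The remaining transcript, of 2099 bases and with no annotated coding region, lies at chr13:23802963-23805061 and overlaps the 3′ end of H1f4 on the same strand. It stood at 4.16 to 4.65 CPM in Ctrl and 1.88 to 2.76 CPM in Upf3b-KO, and fell by 0.95 ± 0.17 on the log2 scale (adjusted p = 0.00689 over all transcripts tested). Reads of H1f4 and of this transcript may have been exchanged by the counting model.

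H3 and H4, the histones that form the core tetramer of the nucleosome, were represented by much lower counts. H3c15 (chr3:96145424-96146443) had 3.87, 3.48, 4.19 and 4.18 CPM in FC Ctrl and 3.14, 2.21, 2.15 and 2.31 CPM in FC Upf3b-KO. The groups were separate, with a log2 fold change of -0.75 ± 0.15 (adjusted p = 0.000175). H3c13, H3c14 and H3c15, which share words, summed to 3.48 to 4.48 CPM and 2.21 to 3.57 CPM, which overlap. That sum leaves out the lncRNA gene Gm20634, which holds 63.5% of the words of H3c15 and 100% of those of H3c14. Gm20634 was at 10.6 to 13 CPM in FC Ctrl and 9.29 to 9.91 CPM in FC Upf3b-KO. H3c4, at 0.0621 to 0.273 CPM in FC Ctrl and 0.0298 to 0.153 CPM in FC Upf3b-KO, was too low to be tested in frontal cortex. Of the H4 genes, H4c8 (chr13:23715220-23715689) had 0.899 to 1.56 CPM in Ctrl and 0.541 to 1.07 CPM in Upf3b-KO (adjusted p = 0.0725), and H4c9 (chr13:22224806-22225532) had 0.72 to 1.02 and 0.429 to 1.33 CPM (adjusted p = 0.908). None of the 5 H4 genes tested passed an adjusted p of 0.05 in edgeR, although 2 passed unadjusted, and their ranges overlapped. DESeq2, which tested 13 H4 genes, had 1 higher and none lower.

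In frontal cortex 20 of the 67 members had counts high enough to be tested. A member was called where its adjusted p was below 0.01 and it differed by more than 2-fold, and 3 of the 20 (15%) were called up and 1 (5%) was called down, against 9.16% up and 1.06% down among the 18218 genes tested. With the looser rule of an adjusted p below 0.05 and any fold, 9 members (45%) were lower and 3 (15%) higher, against 25.3% lower and 28% higher of all genes. The 3 that were higher, H2bc12, H2bc22 and H2bc23, passed the filter through the knockout libraries and so had to differ. Without FC Ctrl replicate 2, 7 members were called and 5 were higher. The 17 members with a mean of at least 0.5 CPM over all libraries were all tested, and 9 of them were lower and none higher in edgeR and in DESeq2, nor was any higher at an unadjusted p under 0.05. Their median log2 fold change was -0.54, beside 0.00 for all genes tested.

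**Figure D4:**
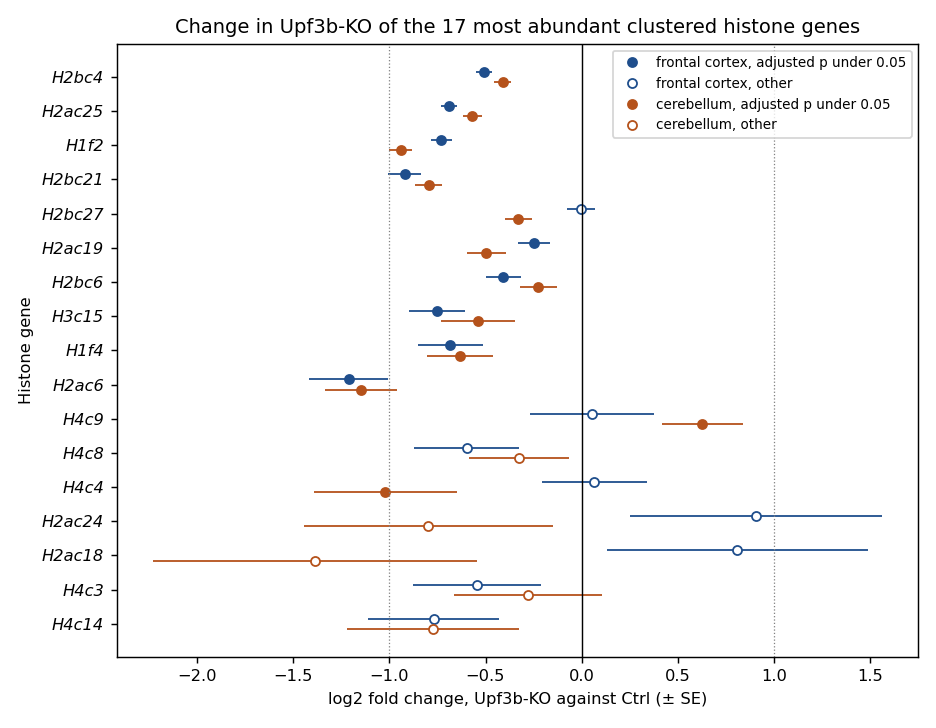
Log2 fold change ± SE of Upf3b-KO against Ctrl in frontal cortex (blue) and cerebellum (brown) for the 17 members that average 0.5 CPM or more, ordered by level; filled points have an adjusted p under 0.05 and dotted lines mark a 2-fold change. Filled points lie left of 0 in both regions apart from H4c9 in cerebellum, and H2ac6 alone has filled points beyond the 2-fold line in both.

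The same question was put to the cerebellum, with the 3 deep Upf3b-KO libraries. Member RNA summed to 187 to 196 CPM in Ctrl and 134 to 140 CPM in Upf3b-KO, 71.4% of the Ctrl mean, again without overlap. H1f2, H2ac25, H2bc4, H2bc21, H2ac6 and H2ac19 were lower, and H2bc27 was lower here as well. H4c9, H2bc12, H2bc13 and H2bc23 were higher. The H1 sum stood at 55% of Ctrl, the H2A sum at 69.1%, the H2B sum at 78.7% and the H3 sum at 63.8%, all without overlap, while the H4 sum, at 91.3%, overlapped.

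H1f2 had 33.2, 37.5, 36.3 and 34.0 CPM in Cere Ctrl and 17.5, 20.4 and 19.1 CPM in Cere Upf3b-KO. Its knockout libraries were all well below the controls, with a log2 fold change of -0.94 ± 0.06 (adjusted p = 6.82e-11). H1f4 had a log2 fold change of -0.63 ± 0.17 (adjusted p = 0.00344). H1f5, the gene of linker histone H1.5, had 0.235 to 0.47 CPM in Ctrl and 0.105 to 0.206 CPM in Upf3b-KO and did not pass 0.05 (adjusted p = 0.0593).

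H2ac25 stood at 31.6, 32.9, 34.3 and 33.9 CPM in Cere Ctrl and at 22.8, 22.4 and 24.1 CPM in Cere Upf3b-KO (log2 fold change -0.57 ± 0.05, adjusted p = 8.13e-09). H2ac6 was at 3.25, 2.82, 3.0 and 2.61 CPM in Ctrl and at 1.48, 1.06 and 1.55 CPM in Upf3b-KO, with a log2 fold change of -1.15 ± 0.19 and an adjusted p of 2.85e-05. Without Upf3b-KO replicate 3 the change was -0.98, short of 2-fold. Both genes of the overlapping pair H2ac6 and H2bc4 fell, and their sum went from 47.6 to 53.1 CPM in Ctrl to 36.1 to 39.4 CPM in Upf3b-KO. H2ac19 fell by 0.50 ± 0.10 on the log2 scale (adjusted p = 0.000287), and its sum with H2ac18 was 9.8 to 12.8 CPM in Ctrl and 7.92 to 8.54 CPM in Upf3b-KO.

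H2bc4 had 46.5, 50.2, 45.1 and 45.0 CPM in Cere Ctrl and 37.9, 35.0 and 36.4 CPM in Cere Upf3b-KO (log2 fold change -0.41 ± 0.05, adjusted p = 2.31e-07). H2bc27 had 20.9, 20.1, 18.9 and 19.1 CPM in Ctrl and 14.5, 16.4 and 17.7 CPM in Upf3b-KO, so that the groups did not overlap in this region (log2 fold change -0.33 ± 0.07, adjusted p = 0.00044). H2bc21 went from 17.7 ± 0.711 (SD, n = 4) to 10.6 ± 0.425 CPM (n = 3), a log2 fold change of -0.80 ± 0.07 (adjusted p = 1.06e-08). For H2bc6, the transcripts moved apart. Its coding transcripts summed to 2.83 to 3.69 CPM in Ctrl and to 4.28 to 4.97 CPM in Upf3b-KO, which do not overlap, whereas the transcript without a coding region had 5.18 to 5.74 CPM in Ctrl and 2.85 to 3.09 CPM in Upf3b-KO and fell by 0.88 ± 0.14 on the log2 scale (adjusted p = 0.00462 over all transcripts tested). As a gene, H2bc6 had an adjusted p of 0.0472, which passed 0.05 in 2 of the 7 fits that left out a library and reached 0.157 in the others.

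In H3, H3c15 had 2.21 to 3.08 CPM in Cere Ctrl and 1.37 to 2.16 CPM in Cere Upf3b-KO, a log2 fold change of -0.54 ± 0.19. Its adjusted p of 0.0204 rose to at most 0.12 without Ctrl replicate 1 or Upf3b-KO replicate 2. H3c4 (chr13:23759937-23761855) had 0.864, 0.762, 0.429 and 0.537 CPM in Ctrl and 0.454, 0.0568 and 0.223 CPM in Upf3b-KO, with overlapping groups. It was tested only through the Ctrl libraries, which bears on its place among the members lower, and did not pass an adjusted p of 0.05 without Upf3b-KO replicate 3 or 4. H4c9 was the one member above 0.5 CPM that was higher, with 1.28, 1.1, 1.01 and 1.27 CPM in Ctrl and 1.7, 1.91 and 1.99 CPM in Upf3b-KO (log2 fold change 0.63 ± 0.21, adjusted p = 0.0143). Without Upf3b-KO replicate 4 that p was 0.0526. H4c4 was lower, with an adjusted p of 0.0227 that rose to at most 0.121 without Ctrl replicate 3, Ctrl replicate 4 or Upf3b-KO replicate 4, and H4c8 had 0.948 to 1.71 and 0.894 to 1.26 CPM.

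In cerebellum 22 members were tested, of which 2 (9.09%) were called up and 1 (4.55%) was called down, against 10.3% and 2.86% of the 17785 genes tested. At an adjusted p under 0.05, 12 members (54.5%) were lower and 4 (18.2%) higher, against 31.3% and 33.1% of all genes. Both members called up, H2bc12 and H2bc13, and H2bc23 among those higher, were tested through the knockout libraries and so had to differ. Without Upf3b-KO replicate 4, 2 members were higher. Of the 17 members with a mean of at least 0.5 CPM, 11 were lower and 1, H4c9, was higher, with a median log2 fold change of -0.57 beside 0.01 for all genes. Among members with under 50% of their words in another gene, 10 of 15 tested were lower and 1 higher in cerebellum, and 7 of 13 were lower and none higher in frontal cortex in edgeR (9 and none unadjusted), where DESeq2 had 7 lower and 2 higher.

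Several low members of chromosome 13, most of them H2B genes, stood the other way. H2bc12 (chr13:22220040-22220515), an intronless H2B gene annotated to end 30 bases past its stem-loop, had 0 CPM in all 4 FC Ctrl libraries and 0.613, 1.73, 0.965 and 0.687 CPM in FC Upf3b-KO. In cerebellum it had under 1 count in every Ctrl library and 1.04, 1.14 and 0.96 CPM in Upf3b-KO. Against the floor of 3 counts per library, it was at least 11.1-fold higher in FC Upf3b-KO and at least 10.9-fold higher in Cere Upf3b-KO. H2bc12 was tested only because of its counts in the knockout libraries and so had to differ, and the same holds for H2bc13 in cerebellum, H2bc22 in frontal cortex and H2bc23 in both regions, so their values are given as a description. H2bc13 (chr13:21899933-21900313) had 0.165 to 0.639 CPM in FC Upf3b-KO against 0.0348 CPM or less in FC Ctrl, where it was not tested, and 0.49, 0.326 and 0.395 CPM in Cere Upf3b-KO against 0 in Cere Ctrl, at least 4.22-fold higher.

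H2bc22 (chr13:21971631-21973391) had 0.1, 0, 0.0916 and 0.0962 CPM in FC Ctrl and 0.378, 0.408, 0.59 and 0.519 CPM in FC Upf3b-KO, without overlap, and was not tested in cerebellum, where it stayed between 0.0384 and 0.176 CPM in Upf3b-KO. H2bc23 (chr13:21990782-21994369) had 0 to 0.111 CPM in FC Ctrl and 0.314 to 0.771 CPM in FC Upf3b-KO (log2 fold change 3.17 ± 0.62). In cerebellum H2bc23 had 0.215 to 0.325 CPM in Ctrl and 0.435 to 0.701 CPM in Upf3b-KO (log2 fold change 1.20 ± 0.42), and it no longer passed 0.05 without Upf3b-KO replicate 2 or 4, where the adjusted p was at most 0.0767. None of these genes reached 1 CPM in the 3 libraries that a stricter filter asked for in frontal cortex, and with that filter H2ac6 was the one member called in either region.

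Since each of these genes shares 55.3% to 98.3% of its words with other genes, the 7 H2B genes H2bc11, H2bc12, H2bc13, H2bc15, H2bc22, H2bc23 and H2bc24 were also summed, a grouping made after their values were seen and given without a test. H2bc23 and H2bc24 are near copies, sharing 98.3% and 92.5% of their words, whereas no other pair shares over 72% of the words of either gene. H2bc11 and H2bc15 stayed low, at means of 0.0227 and 0.0115 CPM in FC Upf3b-KO and 0.0519 and 0.0759 CPM in FC Ctrl, and the genotypes overlapped in both regions. Shared words alone did not set the grouping. H2bc7, an H2B gene of chromosome 13 that shares 65.8% of its words, is not in the sum. It had 0 to 0.0734 CPM in FC Ctrl and 0 in FC Upf3b-KO. Outside H2B, H1f3 at 0 to 0.0909 CPM in FC Ctrl and 0.154 to 0.462 CPM in FC Upf3b-KO, and H4c1 at 0 to 0.0345 and 0.0408 to 0.339 CPM, were also separate in frontal cortex, were too low to be tested, and overlapped in cerebellum. Other low members of chromosome 13 were lower, also untested and separate only in cerebellum: the H2B gene H2bc8, which is not in the sum, at 0.119 to 0.445 CPM in Ctrl and 0.0388 to 0.0729 CPM in Upf3b-KO, and H2ac8 at 0.126 to 0.134 and 0.0329 to 0.0551 CPM. The sum was 0.16 to 0.443 CPM in FC Ctrl and 2.56 to 3.07 CPM in FC Upf3b-KO, a ratio of 10.4. It was 0.343 to 0.687 CPM in Cere Ctrl and 2.45 to 2.71 CPM in Cere Upf3b-KO, a ratio of 5.03. The knockout sums were more even between libraries than the level of H2bc12, whose FC Upf3b-KO values ranged from 0.613 to 1.73 CPM. In absolute terms the gain was small beside the loss of the abundant members, whose 17 genes together went from 175 to 183 CPM in FC Ctrl to 125 to 131 CPM in FC Upf3b-KO.

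**Figure D5:**
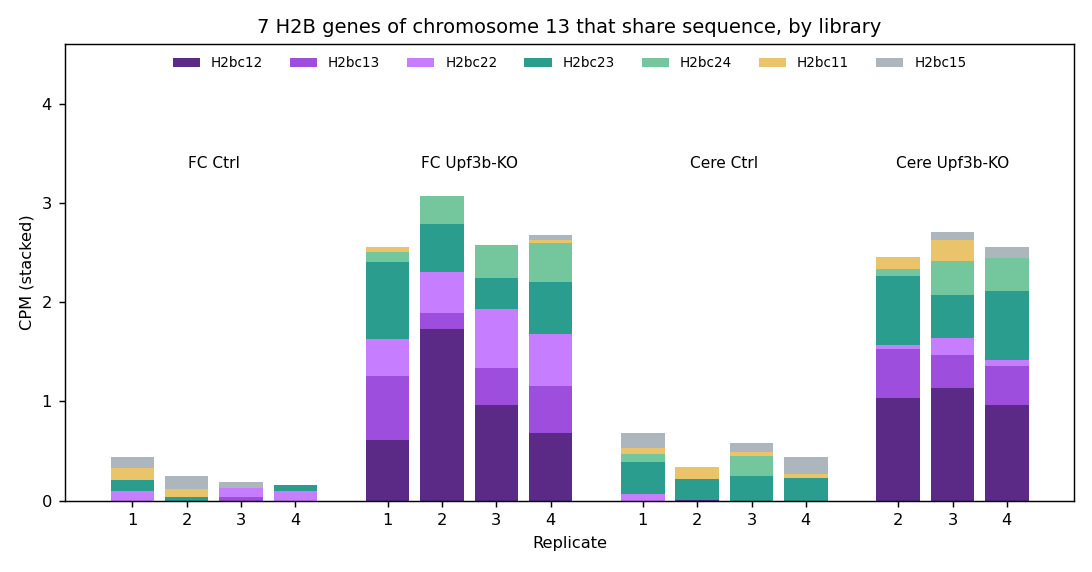
Stacked CPM of 7 H2B genes of chromosome 13 that share sequence, in each of the 15 libraries, by group and replicate number, with the axis from 0. All Upf3b-KO bars reach 2.45 CPM or more and all Ctrl bars stay at 0.687 CPM or less, while the split between copies varies from library to library.

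The level of the members in the 2 regions was compared in Ctrl mice. H1f2 and H2bc27 were higher in cerebellum, H2ac25, H2bc21, H2ac19, H3c15 and H4c14 were higher in frontal cortex, and H2bc4 was close to equal, at 45.4 ± 1.47 CPM in frontal cortex and 46.7 ± 2.43 CPM in cerebellum (SD, n = 4). For H2bc27 the 4 cerebellar libraries lay above the 4 frontal libraries, with a log2 fold change of 0.62 ± 0.07 (adjusted p = 3.98e-08), and the same held for H1f2 at 0.40 ± 0.05 (adjusted p = 3.65e-07). H2ac25 was lower in cerebellum by a log2 fold change of -0.24 ± 0.04 (adjusted p = 3.18e-05) and H3c15 by -0.63 ± 0.14 (adjusted p = 0.000369). H3c4 was the only member called, but it was tested only through the cerebellar libraries, at 0.429 to 0.864 CPM against 0.0621 to 0.273 CPM in frontal cortex, and so had to differ. Without FC Ctrl replicate 4 or Cere Ctrl replicate 1 it was no longer called.

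Without FC Ctrl replicate 1 or 2, 3 members were called. Of 18 members tested between regions, 1 (5.56%) was called higher in cerebellum and none was called lower, against 9.18% and 15.9% of the 17521 genes tested in edgeR. DESeq2 called 2 higher and also none lower, and 5 members were lower at an unadjusted p under 0.05. At an adjusted p under 0.05, 3 members (16.7%) were higher and 5 (27.8%) lower, against 37.8% and 38.7% of all genes. The median log2 fold change of the 18 members was 0.01, and that of all genes was -0.01. H4c14 depended on single libraries, with an adjusted p of 0.0139 that rose to at most 0.0934 without FC Ctrl replicate 2 or Cere Ctrl replicate 2.

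Whether the response to loss of Upf3b differed between the regions was tested by the interaction of region and genotype, given as cerebellum minus frontal cortex. H2bc27 had a value of -0.34 ± 0.10 (adjusted p = 0.00743), which reflects log2 fold changes of -0.0047 in frontal cortex and -0.33 in cerebellum. It passed 0.05 no longer without Cere Upf3b-KO replicate 2, at an adjusted p of 0.0555. H1f2, which was lower in both regions, had a value of -0.22 ± 0.08 (adjusted p = 0.0305). That p passed 0.05 in 9 of the 15 fits that left out a library and rose to at most 0.167, without Cere Upf3b-KO replicate 2 where the value was -0.15. For H2ac25, H2bc4, H2bc21, H2ac6 and H3c15 the adjusted p of the interaction was between 0.169 and 0.897, which does not show that the regions responded alike.

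H2ac23 (chr13:21994635-21995114), an intronless H2A gene, was the only member called in the interaction, but its value rests on zeros. It had 1.17, 0.0, 0.475 and 1.68 CPM in FC Ctrl, 0 in all FC Upf3b-KO libraries, 0.0 to 0.197 CPM in Cere Ctrl, and 0, 0 and 0.459 CPM in Cere Upf3b-KO. Without Cere Upf3b-KO replicate 4 the adjusted p was 1, without FC Ctrl replicate 4 the member was not called either, and DESeq2 gave 0.105. Summed with its near copy H2ac24, it had 1.03 to 2.72 CPM in FC Ctrl and 1.55 to 1.71 CPM in FC Upf3b-KO, so that the pair did not separate the genotypes. H1f5 had a value of -2.86 ± 0.95 on few counts, with 0.0 to 0.124 CPM in FC Ctrl and 0.0989 to 0.229 CPM in FC Upf3b-KO, and was tested only through Cere Ctrl, where it was highest. H2bc23 had a value of -1.97 ± 0.77 and was tested through the knockout libraries, and it passed 0.05 in 7 of 15 fits that left out a library. For both, the value is a description.

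Of 25 members tested for the interaction, 1 (4%) was called positive and none was called negative in edgeR, against 6.36% and 3.04% of the 19831 genes tested. DESeq2 called none in either direction, and 6 members had a negative value at an unadjusted p under 0.05. At an adjusted p under 0.05, 1 member (4%) was positive and 4 (16%) were negative, against 24.2% and 23.8% of all genes.

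The other genes of the histone pathway were described from lists. The counts below at an adjusted p under 0.05 stand beside 28% higher and 25.3% lower among all genes tested in frontal cortex and 33.1% higher and 31.3% lower in cerebellum. Slbp, which encodes the stem-loop binding protein, was at 44.2 to 49.4 CPM in FC Ctrl and 39.8 to 41.9 CPM in FC Upf3b-KO, and at 68.1 to 68.4 CPM in Cere Ctrl and 60.4 to 62.4 CPM in Cere Upf3b-KO. Its log2 fold changes were -0.27 ± 0.04 (adjusted p = 4.44e-06) and -0.20 ± 0.03 (adjusted p = 1.04e-05). Of 19 genes for histone transcription and 3′ processing, 6 were higher and 4 lower in FC Upf3b-KO at an adjusted p under 0.05, and 4 were higher and 10 lower in Cere Upf3b-KO. Npat, the coactivator that switches on clustered histone genes at S phase, had adjusted p-values of 0.0708 and 0.0906, and Lsm11, a subunit of the U7 particle that cuts histone messages, had log2 fold changes of 0.16 ± 0.04 in frontal cortex and -0.30 ± 0.04 in cerebellum (adjusted p = 0.00371 and 3.35e-06). E2f1, a transcription factor of S phase genes, was the only one of the list called, at 1.36 ± 0.19 on the log2 scale in cerebellum (adjusted p = 4.65e-06).

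Of 14 genes for histone mRNA decay, 7 were higher and 3 lower in FC Upf3b-KO and 1 was higher and 7 lower in Cere Upf3b-KO (8 lower at an unadjusted p under 0.05), and none was called in either region by edgeR or DESeq2. Upf1 changed by 0.29 ± 0.04 on the log2 scale in frontal cortex (adjusted p = 1.48e-06) and had a value of -0.06 ± 0.03 in cerebellum (adjusted p = 0.0617). Eri1, an exonuclease that trims histone 3′ ends, had a log2 fold change of 0.07 ± 0.06 in frontal cortex (adjusted p = 0.341) and -0.39 ± 0.05 in cerebellum (adjusted p = 2.67e-06). Of 14 histone chaperones, 3 were higher and 5 lower in frontal cortex and 2 higher and 8 lower in cerebellum, and none was called in either region by edgeR or DESeq2. The counts at an unadjusted p were equal. Nasp, which carries histones H3 and H4 and linker histones, was among those higher in frontal cortex, at 0.89 ± 0.06 (adjusted p = 2.82e-11), and was lower in cerebellum at -0.23 ± 0.08 (adjusted p = 0.0149).

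The 11 replication-independent histone genes in the matrices supply histones outside S phase. Their summed CPM were far above those of the clustered genes, at 1154 to 1173 CPM in FC Ctrl and 2151 to 2183 CPM in Cere Ctrl. That scale rises with transcript length, and no value per kilobase is given for this list. Priming on poly(A) tails would also miss clustered RNAs that end at the stem-loop. At an adjusted p under 0.05, 1 of the 11 genes was higher and 6 were lower in FC Upf3b-KO, and 2 were higher and 7 lower in Cere Upf3b-KO. None was called in edgeR or DESeq2. At an unadjusted p under 0.05, 1 was higher and 6 lower in frontal cortex and 3 were higher and 7 lower in cerebellum. Their median log2 fold changes were -0.16 in frontal cortex and -0.39 in cerebellum. H3f3b, a gene of the H3.3 variant, had log2 fold changes of -0.16 ± 0.02 and -0.91 ± 0.01, and H1f0, the linker histone of resting cells, of -0.19 ± 0.02 and -0.39 ± 0.02 (adjusted p = 5.17e-08 or less in all of these).

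The summed level of 24 markers of dividing cells was 172 to 175 CPM in FC Ctrl and 192 to 198 CPM in FC Upf3b-KO, where 10 were higher and 1 lower at an adjusted p under 0.05 and 5 were called up, among them Top2a at 1.26 ± 0.15 (adjusted p = 2.3e-07). In cerebellum the sum was 241 to 249 CPM in Ctrl and 209 to 210 CPM in Upf3b-KO, and 4 were higher and 10 lower. No gene of the list was called there by edgeR, and DESeq2 called 1 up.

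Markers of other cell types moved with genotype. The summed level of 12 choroid plexus markers was 251 to 253 CPM in FC Ctrl, 5242 to 5296 CPM in FC Upf3b-KO, 214 to 216 CPM in Cere Ctrl and 3474 to 3494 CPM in Cere Upf3b-KO, with 12 of 12 called up in frontal cortex and 11 of 12 in cerebellum. Some of them were tested only through the knockout libraries and so had to differ, such as Otx2 and Slc4a5 in frontal cortex, with Ctrl means of 0.0384 and 0.0764 CPM, and Folr1, Sostdc1 and Aqp1 in cerebellum, with Ctrl means of 0.105, 0.091 and 0.0548 CPM, whereas Enpp2 was at 226 CPM in FC Ctrl and 179 CPM in Cere Ctrl. The 16 male germ cell markers summed to 31.2 to 33.3 CPM in FC Ctrl and 166 to 177 CPM in FC Upf3b-KO, where 13 were called up, and to 34.4 to 36.7 CPM in Cere Ctrl and 24.1 to 27 CPM in Cere Upf3b-KO, where 4 were called up and 1 down. The gene called down, Sycp1, went from a mean of 28.4 to 9.53 CPM in cerebellum and sets the direction of that sum, whereas Akap4 went from 0.15 to 2.3 CPM, Ldhc from 0.115 to 2.39 CPM and Meig1 from 0.543 to 2.63 CPM. Akap4, Ldhc and Cabs1 in cerebellum, and Tex101, Acrv1 and Sycp1 in frontal cortex, were likewise tested only through the knockout libraries. Striatal neuron markers were at 205 to 220 CPM in FC Ctrl and 961 to 975 CPM in FC Upf3b-KO, with 10 of 10 called up, and were at 415 to 425 and 399 to 408 CPM in cerebellum. Cerebellar neuron markers summed to 9441 to 9603 CPM in Cere Ctrl and 4010 to 4024 CPM in Cere Upf3b-KO, with 5 of 8 called down. Oligodendrocyte precursor markers were at 385 to 393 CPM in FC Ctrl and 475 to 484 CPM in FC Upf3b-KO, with 7 of 8 higher at an adjusted p under 0.05 and none called in edgeR or DESeq2 (8 higher unadjusted), and at 193 to 203 CPM in Cere Ctrl and 480 to 486 CPM in Cere Upf3b-KO, with 8 of 8 higher and 4 called up. The labelled tissues were recognised by their markers, since frontal cortex neuron markers summed to 2444 to 2555 CPM in FC Ctrl and 527 to 547 CPM in Cere Ctrl. That list was at 2526 to 2557 CPM in FC Upf3b-KO, with 3 higher and 4 lower of 8 at an adjusted p under 0.05 and 1 called down. In Cere Upf3b-KO the list was at 372 to 381 CPM, with 2 higher and 2 lower of 6 tested and 1 called up. Microglia markers were at 575 to 596 and 632 to 638 CPM in frontal cortex and 203 to 209 and 270 to 275 CPM in cerebellum, with none called in edgeR or DESeq2 and 3 and 7 higher at an unadjusted p under 0.05. No marker in these lists was at 0 in all libraries. The part of these cell types in the differences of the members was not tested.

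Histone and protamine genes of the germ line lie outside the rule. Of 14 such genes in the matrices, H1f8 and H2bw2 had no counts, 10 were called up in frontal cortex and 5 in cerebellum by edgeR, and no other was tested. DESeq2 tested 12 in each region and called 10 and 6 up. Several, such as H1f7 and Tnp1 in cerebellum with means of 0.00723 and 0.0337 CPM in Ctrl and 0.617 and 0.557 CPM in Upf3b-KO, were tested through the knockout libraries and so had to differ. The 14 genes summed to 19.2 to 22 CPM in FC Ctrl, 140 to 148 CPM in FC Upf3b-KO, 0.792 to 1.05 CPM in Cere Ctrl and 8.72 to 9.95 CPM in Cere Upf3b-KO. Prm2, a protamine that replaces histones in sperm, had log2 fold changes of 2.94 ± 0.07 (adjusted p = 3.1e-19) and 3.09 ± 0.23 (adjusted p = 8.09e-10).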

How the data were processed

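The authors extracted total RNA, depleted ribosomal RNA, made libraries with the SMART-Seq v4 PLUS kit and sequenced paired ends on a NovaSeq. Per the labels, reads were aligned to GRCm39 with STAR 2.5.2b. The deposited values are RSEM expected counts per Ensembl transcript, not scaled for depth or length, and reads shared by several transcripts were divided among them by the model. Of 142435 transcripts, 141102 matched GENCODE vM39 by identifier. It gave symbols, coordinates and ends and is not the release the authors used. No column was without a sample.

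Counts were summed per gene, rounded and analysed with edgeR 4.0.16 (limma 3.58.1, R 4.3.3): filterByExpr (minimum count 10, minimum total 15), TMM scaling and quasi-likelihood F tests. The p-values were adjusted over all genes tested by the method of Benjamini and Hochberg. The SE is the absolute log2 fold change divided by the square root of F. CPM are relative to all counts of a library. Shared words of 50 bases were counted on both strands. Floors cover counting error only. The fits were tested on simulated counts.

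The members, gene lists, tests and the naming rule were chosen with earlier results of these data known. Named in full were up to 5 members called in each direction per comparison and the 2 highest per kilobase in each family, and of other lists up to 3 called per direction or those needed for a role. Alternatives were DESeq2 1.42.0, median-of-ratios scaling, no filter, a filter of 1 CPM in 3 libraries, other thresholds, a replicate block, leaving out each library, transcripts as the unit, 15 libraries in 1 fit and the shallow library. Restriction to members with few shared words and the counts without a fold limit by direction were added after seeing the data.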

Additional observations from a re-analysis of the deposited data

Results flagged for a closer look

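In groups of 4 libraries, a sample stood apart by Dixon's criterion in 6 of 45 combinations of named member and group examined. Chance gives about 1 in 20 for normally distributed values, a rate that does not hold for groups with zeros. Where the other libraries of a group are all at 0, any count stands apart, as for H2bc12 and H2bc22 in Cere Ctrl and H2bc13 in FC Ctrl. The 6 were H2bc12 in Cere Ctrl at 0.00412 CPM against 0 in the others, H2bc13 in FC Ctrl at 0.0348 CPM, H2bc22 in FC Ctrl at 0 CPM and in Cere Ctrl at 0.0654 CPM, H3c15 in FC Upf3b-KO at 3.14 CPM and H3c4 in FC Ctrl at 0.0621 CPM. All but H3c15 are at or under the floor of 3 counts.

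Members whose response differed between the regions, by the interaction at an adjusted p under 0.05 in edgeR, were H2ac23 (8.48, a fitted value that rests on zeros), H2bc27 (-0.34), H1f5 (-2.86), H1f2 (-0.22) and H2bc23 (-1.97), as cerebellum minus frontal cortex on the log2 scale. H1f5 was tested only through Cere Ctrl and H2bc23 through the knockout libraries, so their place here follows in part from the filter on low counts.

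Cere Upf3b-KO replicate 1, left out for its depth, held 7.99 counts of members among 64981, or 123 CPM, with an exact Poisson interval at 95% of 53.2 to 243 CPM that covers counting error only.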

How the results depend on the processing

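Of the fold changes of named members, 819 values under the alternatives kept their direction and their side of the threshold, 31 no longer passed it and 3 newly did. The counts of members below are given without the share of all genes under each alternative, and a looser rule raises that share as well. They describe the rule and are not a result about the members. With no fold limit, the rule was an adjusted p under 0.05, for which the shares of all genes stand with each comparison above. In frontal cortex 4 members were called. That number was 9 with a fold over 1.5, 12 with no fold limit, 8 with DESeq2, 8 with no filter, 1 with the stricter filter, 1 with transcripts as the unit, 7 with 15 libraries in 1 fit and 1 among members with few shared words, and 5 to 7 when a library was left out, the highest without FC Ctrl replicate 2. Members higher numbered 3, against 7 with DESeq2, 10 with no filter, 5 with 15 libraries in 1 fit, 0 with the stricter filter or among members with few shared words, and 3 to 5 when a library was left out. Members lower numbered 9, against 7 with transcripts or few shared words and 9 or 10 otherwise. The median log2 fold change of the 20 members tested, -0.46, turned to 0.0037 with DESeq2, which tested 57.

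In cerebellum 3 were called, against 6 with a fold over 1.5, 16 with no fold limit, 5 with no filter and 1 with the stricter filter, transcripts or few shared words, and 2 to 4 when a library was left out. Members higher numbered 4, against 2 with transcripts or with the shallow library, 1 with the stricter filter or few shared words, and 2 to 4 when a library was left out, the lowest without Upf3b-KO replicate 4. Members lower numbered 12, and 7 with transcripts.

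Between regions 1 was called, against 3 with a fold over 1.5, 8 with no fold limit, 2 with DESeq2, 3 with no filter, 4 with 15 libraries in 1 fit, 0 with the stricter filter or transcripts, and 1 to 3 when a library was left out. For the interaction 1 was called, against 5 with no fold limit, 4 with no filter, 0 with DESeq2, the stricter filter or transcripts, and 0 to 2 when a library was left out (0 without Cere Upf3b-KO replicate 4, 2 without FC Ctrl replicate 2). Where no construction of the alternative shows it, the cause was not tested.

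Deviations of libraries with the same number correlated at -0.0415 to 0.036, and those of libraries with different numbers at -0.0471 to 0.04. No pairing by number was seen. This check cannot exclude pairing, since whether libraries of the same animal would correlate in these deviations was not tested. With the replicate as a block the calls numbered 4, 3, 1 and 1. H3c15 (-0.47, adjusted p = 0.0733) and H2bc6 in cerebellum and H2bc23 in the interaction no longer passed 0.05 with it. Levels under about 0.1 CPM are limited by depth.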
